A study of Mus musculus with 2 samples.

Results

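The Hox genes are the homeobox transcription factor genes that lie in the HoxA, HoxB, HoxC and HoxD clusters of the mouse genome. They were taken as every probe of the array, control spots left out, whose gene name is Hox, a cluster letter and a paralog number. The rule found 50 probes, on 59 spots, of 41170 probes on the array, and these stood for 38 genes of 19747 named genes. RefSeq lists 39 such genes in mouse, and Hoxc11 had no probe under its name. Of the 38 genes, 26 had 1 probe and 12 had 2 probes of different sequence.

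The series concerns genes that act downstream of FOXJ1, which drives the making of motile cilia, and here fetal airway epithelium was compared between 2 ages. The E14.5 group was 1 whole lung of a wild-type male CD-1 foetus, named by its days of embryonic life, and the E18.5 group was 1 whole lung of a foetus of the same strain, sex and genotype, with no agent named in the labels for either. Both were cryosectioned at 10 µm and stained with hemalum, a laser was used to cut out the epithelium of intralobular airways, and 100 ng of total RNA of each was amplified in a single round. The E14.5 material was labelled green (Cy3), the E18.5 material red (Cy5), and both were hybridised to 1 array. With 1 sample per age there were no replicates, so differences carry no p-value, and without a dye swap the dye and the age cannot be told apart.

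A Hox cluster is a row of genes that all point the same way. Genes near the 3′ end have low paralog numbers and are switched on early and towards the head, and those near the 5′ end have high numbers and are switched on later and towards the tail. Genes of the same number in different clusters are paralogs. Hox proteins bind DNA together with PBX, MEIS and PKNOX cofactors, and Polycomb and Trithorax proteins keep the clusters off or on. In the developing lung the best known member is Hoxa5, which is needed for normal growth of the airways and trachea and acts mainly in the mesenchyme around them.

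Probe positions are those of the file headers' build, mm8. By the outermost probes, HoxA was covered on chromosome 6 (11 genes, minus strand), HoxB on chromosome 11 from 96012144 to 96183286 (171.1 kb, 10 genes, plus strand), HoxC on chromosome 15 from 102756397 to 102864186 (107.8 kb, 8 genes, plus strand) and HoxD on chromosome 2 from 74470787 to 74565841 (95.1 kb, 9 genes, plus strand). The signals came from probes of 60 bases, and an annotation of mm8 was not used here, so exons and untranslated regions are not named. The first 30 bases of the probes on which the results below turn are shown, as the files give them: the farthest members in each direction (Hoxb5, Hoxb2 and Hoxd4), the lung gene Hoxa5, and both probes of the genes whose probes disagreed or lay on opposite strands.
Hoxb5, chr11:96121906-96121965: taggccccacaaggcctagtctggaagcgt
Hoxb2, chr11:96169898-96169957: tggtaaaactccttccaacgaaatctcagg
Hoxb2, opposite strand, chr11:96166636-96166695: gtaatgtattctatggtgaggcacctatga
Hoxb6, brighter probe, chr11:96117339-96117398: tcgagtctcatttcgtccatgtcccccgtg
Hoxb6, dimmer probe, chr11:96115057-96115116: ggtgctatttgacaattcctgcctctgcca
Hoxa3, brighter probe, chr6:52099994-52100053: agccctgtgcctcccggtgcaggaggctat
Hoxa3, dimmer probe, chr6:52099328-52099387: ggtaatgcgtttttatagtttatgtgacgt
Hoxa5, chr6:52131633-52131692: gtgtaattaatgctgttgtagaggtgactt
Hoxd4, chr2:74529648-74529707: tcatatggcaggagctactgagaacataaa

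Because Hox genes are alike, probes of different members were set against each other. Over 1213 pairs of probes of different members, the longest run of identical bases was 22, shared by the Hoxa9 probe and the dimmer Hoxb3 probe, and the next longest was 14 (Hoxa9 and Hoxd10). The values of Hoxa9 and of the dimmer Hoxb3 probe may therefore mix both genes.

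Most, though not all, Hox probes gave a signal. At E14.5, 29 of the 50 (58.0%) stood well above background, beside 75.17% of all probes on the array. At E18.5, 31 (62.0%) did, beside 78.65%. The ages could be compared for 27 Hox genes, of which 20 were well above background at both, 2 at E14.5 only and 5 at E18.5 only. For the 7 above background at 1 age the ratio is a bound, and only an approximate one, because the dim side kept its own signal. The other 11 (Hoxa10, Hoxa11, Hoxb1, Hoxb13, Hoxc8, Hoxc9, Hoxc12, Hoxc13, Hoxd1, Hoxd3 and Hoxd8) were not well above background at either age, Hoxb1 on all of its 10 spots, and have no ratio. Intensities below are normalized, in arbitrary units, and are compared only within a probe. Among the probes that the scanner software marked as well above background, the lowest intensity was 83.4 in the E14.5 channel and 63.2 in the E18.5 channel; the mark is set spot by spot, so some probes above these values do not carry it.

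In the airway epithelium samples, 8 Hox genes were at least 2-fold lower at E18.5 than at E14.5 and 1 was at least 2-fold higher, while 18 lay within 2-fold. The lower genes were Hoxa2, Hoxa4, Hoxa5, Hoxb2, Hoxb3, Hoxb4, Hoxb5 and Hoxb6, and the higher gene was Hoxd4. They are 29.63% of the 27 genes with a ratio or bound, beside 10.0% of all 17314 genes called lower in the same way, and 3.7% beside 17.2% called higher. Counted over all 38 Hox genes, 21.05% were lower, beside 8.8% of all named genes on the array. The median log2 ratio of E18.5 over E14.5 was -0.20 over the 27 Hox genes, with bounds at their limit, beside 0.06 over all 17314 genes taken the same way. Over the 20 Hox genes measured at both ages it was -0.75. No median over all genes under that filter is given to set beside it. Of the 20, 14 had a log2 ratio below 0 and 6 above. At the 2-fold limit, Hoxb4 lay just inside with a log2 ratio of -1.10 and Hoxb7 just outside with -0.99.

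The scanner software's own ratio, which adds no offset to the signals, called the same 8 genes lower and 5 more: Hoxa7, Hoxa9, Hoxb7, Hoxb9 and Hoxd10. That made 13 genes (48.15%), beside a background of 15.2%, with 1 higher, Hoxd4, beside 17.7%. Below, the error after each scanner ratio is the one the software wrote for that spot on the log2 scale. It covers the spot and the array and no difference between lungs. For a probe above background at 1 age only, such as that of Hoxd10, the scanner value is a bound computed here from the software's processed signals.

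**Figure D1:**
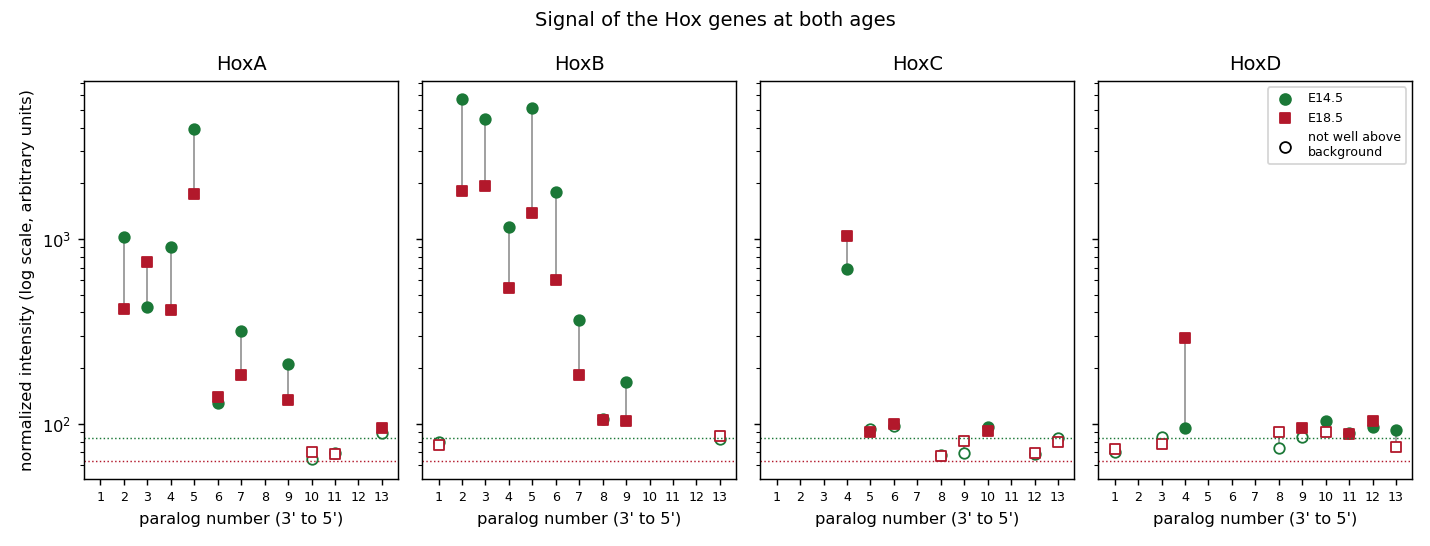
Normalized intensity (log scale, arbitrary units) of Hox genes at E14.5 (circles) and E18.5 (squares), by cluster and paralog number from 3′ to 5′. Open symbols were not well above background, and dotted lines mark the lowest intensity of any probe well above it, 83.4 at E14.5 and 63.2 at E18.5. Wide gaps with E14.5 on top lie in HoxA and HoxB, and the wide gap with E18.5 on top is Hoxd4.

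HoxB held 5 of the 8 lower genes, at neighbouring positions 2 to 6. Hoxb5, a gene expressed in the embryonic lung, had an intensity of 5110 at E14.5 and 1389 at E18.5, a log2 ratio of -1.88 or 3.68-fold lower, and a scanner ratio of -2.14 ± 0.28. This was the largest drop among the Hox genes. Hoxb2, known for its part in patterning the hindbrain, went from 5702 to 1806, a log2 ratio of -1.66 or 3.16-fold lower (scanner ratio -1.88 ± 0.27). Its other probe, which lies on the strand opposite to the cluster's genes, went from 464 to 151, a log2 ratio of -1.62 (scanner ratio -2.44 ± 0.31), so signal from both strands was lower at E18.5. It was the only Hox probe on the opposite strand (1 of 50).

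Hoxb3 was measured with a pair of probes that differed by 0.08 on the log2 scale. The brighter went from 4446 to 1935, a log2 ratio of -1.20 or 2.30-fold lower (scanner ratio -1.39 ± 0.24), and the dimmer, with the shared run, from 456 to 210.4, a log2 ratio of -1.12. Hoxb4, which is known for its role in blood stem cells, went from 1167 to 543, a log2 ratio of -1.10 or 2.15-fold lower (scanner ratio -1.44 ± 0.24). Hoxb6, by its brighter probe, went from 1788 to 597, a log2 ratio of -1.58 or 3.0-fold lower (scanner ratio -1.91 ± 0.27). The dimmer Hoxb6 probe went the other way, as described below.

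Towards the 5′ end of HoxB no gene passed 2-fold in the normexp and loess values, while Hoxb7 and Hoxb9 did by the scanner ratio. Hoxb7 went from 365 to 183, 1.99-fold lower (log2 ratio -0.99, scanner ratio -1.54 ± 0.25). Hoxb9 went from 168 to 103, a log2 ratio of -0.71 (scanner ratio -1.61 ± 0.29). Its other probe, above background at E14.5 only, was 1.45-fold lower with the E18.5 side at its own signal (scanner bound -1.45 on the log2 scale, past 2-fold). Hoxb8 stood at 106 and 105 by its brighter probe, a log2 ratio of -0.01. Its other probe was well above background at E14.5 only, at 136 against 80.2, which is 1.69-fold lower with the E18.5 side at its own signal (scanner bound -1.95, past 2-fold). Hoxb1 and Hoxb13, at the ends of the cluster, were not well above background. The median log2 ratio of the 8 measured HoxB genes was -1.15.

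HoxA held the other 3 lower genes. Hoxa5 went from 3936 at E14.5 to 1747 at E18.5, a log2 ratio of -1.17 or 2.25-fold lower (scanner ratio -1.35 ± 0.24). Hoxa2, which patterns the hindbrain and the neural crest of the face and ear, went from 1018 to 417, a log2 ratio of -1.29 or 2.44-fold lower (scanner ratio -1.70 ± 0.26). Hoxa4 went from 905 to 412, a log2 ratio of -1.14 or 2.20-fold lower (scanner ratio -1.57 ± 0.25), and its dimmer probe from 140 to 87.1, a log2 ratio of -0.68 (scanner ratio -1.95 ± 0.34, past 2-fold). These 3 genes lie among others that did not pass 2-fold.

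Hoxa6 stood at 130 and 140, a log2 ratio of 0.11. Hoxa7 went from 318 to 184 (log2 ratio -0.79, scanner ratio -1.29 ± 0.24) and Hoxa9, a gene known from blood cell progenitors and leukaemia, from 210.1 to 134 (log2 ratio -0.65, scanner ratio -1.36 ± 0.25). Both were lower at E18.5, past 2-fold by the scanner ratio only. Hoxa3 had opposite signs in its probes, and Hoxa13, which acts in the limb and hindgut, was above background at E18.5 only, at 94.9 against 88.6. The median log2 ratio of the 8 HoxA genes measured at both ages was -0.72.

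HoxC and HoxD had no gene called lower in the normexp and loess values, among their 10 with a ratio or bound, and 1, Hoxd10, by the scanner ratio. Apart from Hoxc4, these genes had E14.5 intensities of at most 103.2, too low for a drop past 2-fold to be called in the normexp and loess values. Hoxd4, a gene of the hindbrain and cervical vertebrae, went from 95.3 at E14.5 to 291 at E18.5, a log2 ratio of 1.61 or 3.05-fold higher, and the scanner ratio was 2.96 ± 0.36. Its E14.5 signal lay close to the lowest that counted as well above background, and its fold depended on the offset: with an offset of 16 in place of 50 the log2 ratio was 2.09. Hoxc4, which sits at the 3′ end of its cluster, went from 685 to 1035, a log2 ratio of 0.60 or 1.51-fold higher (scanner ratio 0.45 ± 0.21). The file places its 60-base probe on only 43 bases of chromosome 15.

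The remaining HoxC and HoxD genes were near the background at both ages. Hoxc10 stood at 95.8 and 91.8 and Hoxd12 at 96.3 and 103, log2 ratios of -0.06 and 0.10. Hoxc5 (94.2 and 90.4), Hoxc6 (97.2 and 99.8), Hoxd9 (84.8 and 95.1) and Hoxd11 (89.1 and 88.2) were above background at E18.5 only, and Hoxd10 (103 and 90.0) and Hoxd13 (92.1 and 75.2) at E14.5 only. Their bounds were at most 1.22-fold in the normexp and loess values. The bound of Hoxd10 depended on the processing: on the log2 scale it was -0.20 in those values, -1.17 by the scanner software's background-subtracted signals and -0.60 in the authors' value table. In the normexp and loess values the ages could not be told apart for these genes at this sensitivity.

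**Figure D2:**
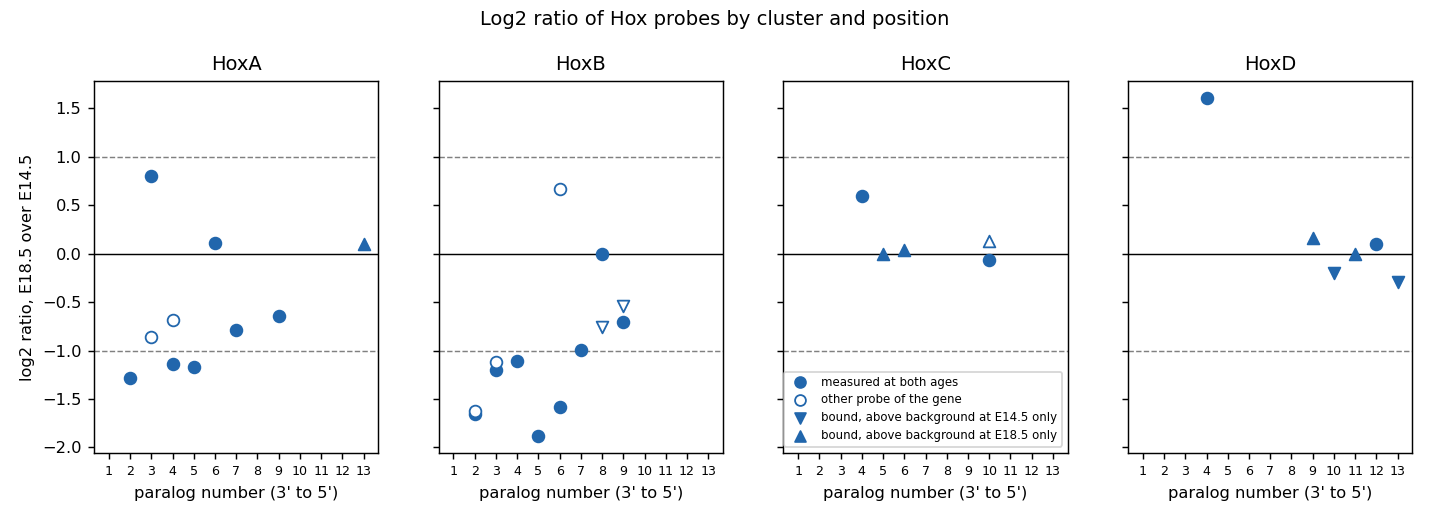
Log2 ratio of E18.5 over E14.5 of Hox probes above background (vertical axis) by cluster and paralog number (horizontal axis); filled circles are the probe used for a gene, open symbols its other probe, triangles bounds, and dashed lines 2-fold. HoxA and HoxB hold every probe at or below -1, at paralog numbers 2 to 6, Hoxd4 is the only point above 1, and Hoxa3 and Hoxb6 have probes of opposite sign.

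Detection by position differed between the clusters. In HoxA all 10 probes for paralogs 1 to 9 were well above background at each age, and in HoxB 13 of 14 at E14.5 and 11 at E18.5. In HoxC the E14.5 channel had 1 of 5 for paralogs 1 to 9 and 1 of 4 for paralogs 10 to 13, and the E18.5 channel 3 of 5 and 2 of 4. In HoxD the E14.5 channel had 1 of 7 and 3 of 5, and the E18.5 channel 2 of 7 and 2 of 5. The 3 at E14.5 (Hoxd10 at 103, Hoxd12 at 96.3 and Hoxd13 at 92.1) were near the background. A Hoxd9 probe at 90.9 was not marked as above it, so the HoxD counts show no clear side. Over all clusters the E14.5 signal was well above background for 25 of the 36 probes for paralogs 1 to 9 and for 4 of the 14 probes for paralogs 10 to 13, and the E18.5 signal for 26 and 5. Of the 27 genes with numbers 1 to 9, 18 were measured at both ages, and of the 11 genes with numbers 10 to 13, which pattern the lower trunk, limbs and urogenital tract, 2 were: Hoxc10 and Hoxd12. Of these 11, 6 had a ratio or bound, 0 of which passed 2-fold in the normexp and loess values and 1, Hoxd10, by the scanner ratio. None had an intensity above 103.2 in the E14.5 channel or 103.3 in the E18.5 channel. A drop from 103.2 to 63.2, the lowest E18.5 intensity that counted as well above background, stays within 2-fold. A drop past 2-fold could thus not be called for these genes in the normexp and loess values, and the 0 says nothing about position. All 8 genes called lower in the normexp and loess values had paralog numbers from 2 to 6, and the 5 that the scanner ratio added had numbers 7, 9 and 10.

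Paralogs did not all move alike. In group 4, the only group with all its 4 members measured at both ages, Hoxa4 and Hoxb4 had log2 ratios of -1.14 and -1.10, and Hoxc4 and Hoxd4 had 0.60 and 1.61. Both members of group 2, Hoxa2 and Hoxb2, were lower (-1.29 and -1.66), as were Hoxa5 and Hoxb5 in group 5 (-1.17 and -1.88). Hoxc5 was near the background at both ages (94.2 and 90.4), though marked as above it at E18.5 only, and gave no direction. Groups 7 and 9 had the pairs Hoxa7 and Hoxb7 at -0.79 and -0.99 and Hoxa9 and Hoxb9 at -0.65 and -0.71. In group 3 the brighter probes gave different signs, 0.80 for Hoxa3 against -1.20 for Hoxb3. In group 6 Hoxa6 had 0.11, with no clear direction (scanner ratio 0.23 ± 0.24), against -1.58 for the brighter Hoxb6 probe. The dimmer Hoxa3 probe (-0.86) had the sign of Hoxb3, and the dimmer Hoxb6 probe (0.67) lay above 0. The contrast in groups 3 and 6 thus depends on the probe.

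Where a gene had a pair of probes, both could be measured or bounded for 8 genes. Over all 6889 genes with several probes the median SD between probes was 0.33 on the log2 scale, and over 204 probes with at least 3 spots the median SD between repeated spots was 0.04. Of the 8 Hox genes, 5 had probes within 0.5 of each other and 2 had probes at least 1 apart. The dimmer Hoxb6 probe went from 495 to 786, a log2 ratio of 0.67 (scanner ratio 0.51 ± 0.21), against -1.58 for the brighter, a difference of 2.25 between probes 2282 bases apart. The brighter Hoxa3 probe went from 430 to 750, a log2 ratio of 0.80 (scanner ratio 0.64 ± 0.21), and the dimmer from 355 to 196, -0.86 (scanner ratio -1.31 ± 0.24), a difference of 1.66 between probes 666 bases apart. These differences exceed the scanner software's errors, and for Hoxa3 and Hoxb6 the direction depended on the probe. Why the probes of these genes differ was not tested. With the median over probes in place of the brighter probe, Hoxa3 had a log2 ratio of -0.03, Hoxa4 of -0.91, Hoxb6 of -0.46 and Hoxb8 of -0.38. Hoxa4 and Hoxb6 were then no longer called lower, which left 6 such genes.

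**Figure D3:**
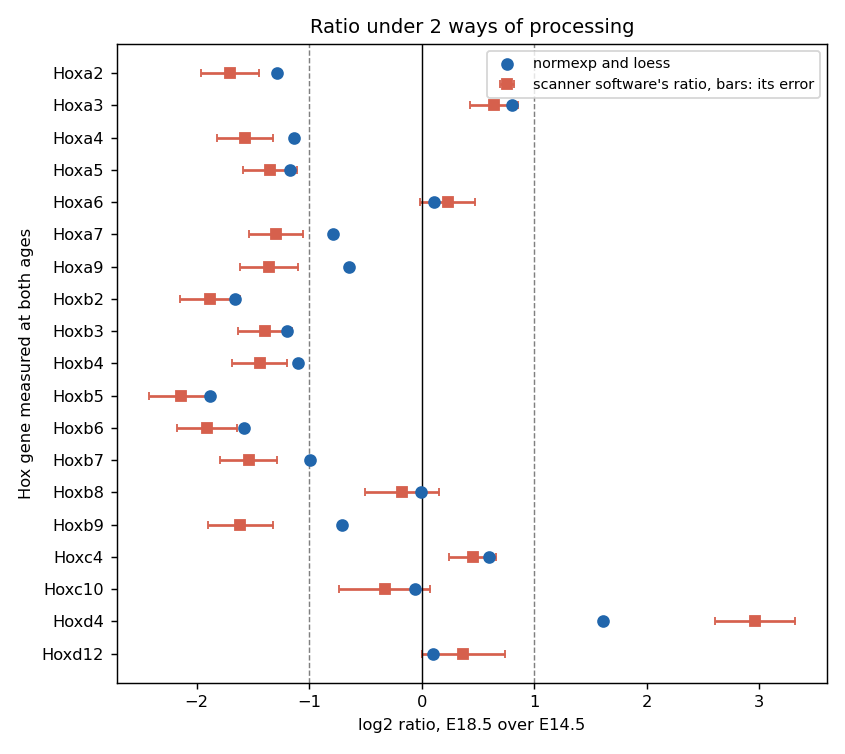
Log2 ratio of E18.5 over E14.5 of Hox genes measured at both ages, after normexp background correction with loess (circles) and from the scanner software (squares, bars: the software's error); dashed lines mark 2-fold. The scanner ratio lay farther from 0 for the genes past 2-fold, up to 2.96 for Hoxd4, and carried Hoxa7, Hoxa9, Hoxb7 and Hoxb9 past 2-fold.

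Other transcripts inside the clusters gave little signal. Of 9 such probes, 2 were well above background and 1 of these at both ages: Hoxaas2, a noncoding transcript opposite to the HoxA genes near Hoxa3, stood at 596 and 543, a log2 ratio of -0.13 (scanner ratio -0.36). Hoxaas2 lay within 2-fold, as did both probes of the nearest Hox gene, Hoxa3, in the normexp and loess values (0.80 and -0.86). The dimmer Hoxa3 probe was past 2-fold by the scanner ratio (-1.31). Hoxa2, Hoxa4 and Hoxa5, which lie farther away, were lower. A probe for Hoxaas3 was above background at E14.5 only, at 97.5 against 83.0, and both probes for Hoxd3os1 were dim.

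Genes listed as lying beside the clusters, some of them farther off, differed gene by gene. Among 20 such genes the 2-fold limit was passed upwards by 2 and downwards by 4, with 14 in between and a median log2 ratio of -0.08. Of these, Tax1bp1, Skap1, Snx11, Cbx1, Atf2, Atp5g3 and Hnrnpa3 had no probe placed within 300 kb of the cluster probes. The balance turned with the scaling, to 3 upwards and 1 downwards with median centring, and 2 and 6 by the scanner ratio. Over all genes, 17.2% were called higher and 10.0% lower in the normexp and loess values. Beside HoxB, Ttll6, which encodes a tubulin-modifying enzyme of cilia, had a log2 ratio of 3.68 (997 to 12764) and Calcoco2, an autophagy receptor, 2.41, while Atp5g1, a subunit of ATP synthase, had -1.04. Ttll6 and Calcoco2 were thus higher at E18.5 beside a cluster whose genes Hoxb2 to Hoxb6 were lower. Beside HoxC, Cbx5, a heterochromatin protein, had -2.12 and Hnrnpa1, an RNA-binding protein, -1.28. Hnrnpa3, on the chromosome of HoxD but over 300 kb from its probes, had -1.40. Igf2bp1, an RNA-binding protein within 300 kb of HoxB, was not on the list and is named after its values were seen: its 3 probes had log2 ratios of -1.90, -1.10 and -0.34.

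Promoters of the genes past 2-fold are shown where RefSeq's table for GRCm38.p6 holds them, so that the upstream sequence of members with opposite ratios can be compared. The table matched 22 of the 38 genes, with 24 windows of 250 bases before the start of the transcript, and it holds Hoxa2, Hoxa5, Hoxb4 and Hoxd4 among the 9 genes past 2-fold. Both strands were searched for TATAAA (the TATA box), CCAAT, TGATNNAT (a form of the site bound by Hox and PBX proteins together) and AGGTCA (a half-site of nuclear receptors such as those for retinoic acid), and matches are in capitals. A match is no proof of binding. The sequences read 5′ to 3′ towards the start.
Hoxa2, chr6:52164832-52165081, minus strand: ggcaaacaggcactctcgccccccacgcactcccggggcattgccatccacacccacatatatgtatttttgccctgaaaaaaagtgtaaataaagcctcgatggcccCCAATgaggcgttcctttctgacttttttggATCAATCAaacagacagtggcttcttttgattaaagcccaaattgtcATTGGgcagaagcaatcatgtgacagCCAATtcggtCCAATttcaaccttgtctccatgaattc
Hoxa5, chr6:52204588-52204837, minus strand: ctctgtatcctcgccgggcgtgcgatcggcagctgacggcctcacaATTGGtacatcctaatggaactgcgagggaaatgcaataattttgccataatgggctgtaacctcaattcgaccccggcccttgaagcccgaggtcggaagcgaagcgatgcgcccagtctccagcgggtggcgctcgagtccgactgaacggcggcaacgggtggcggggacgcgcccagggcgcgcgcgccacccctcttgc
Hoxb4, chr11:96318017-96318266, plus strand: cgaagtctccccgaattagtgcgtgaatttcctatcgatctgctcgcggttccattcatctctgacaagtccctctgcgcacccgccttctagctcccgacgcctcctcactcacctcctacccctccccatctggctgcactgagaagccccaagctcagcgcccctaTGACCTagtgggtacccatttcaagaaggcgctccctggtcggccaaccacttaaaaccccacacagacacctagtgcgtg
Hoxd4, chr2:74721728-74721977, plus strand: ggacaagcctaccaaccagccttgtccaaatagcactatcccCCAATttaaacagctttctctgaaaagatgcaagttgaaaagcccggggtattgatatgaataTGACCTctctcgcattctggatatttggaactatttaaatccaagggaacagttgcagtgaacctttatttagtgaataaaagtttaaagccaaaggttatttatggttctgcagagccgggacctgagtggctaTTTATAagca

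The Hoxa2 window held 4 matches to CCAAT and 1 to TGATNNAT, the Hoxa5 window 1 to CCAAT and the Hoxb4 window 1 to AGGTCA. The Hoxd4 window held 1 match to TATAAA, another to CCAAT and another to AGGTCA. With a GC content of 40.4% and 3 CpG dinucleotides it had the lowest GC content of the 24 Hox windows, against 46.4% for Hoxa2, 58.0% for Hoxb4 and 63.6% with 28 CpG for Hoxa5. Over the 24 Hox windows CCAAT was found in 14 (58.33%, beside 33.85% of all 32851 windows), AGGTCA in 6 (25.0% beside 14.02%), TGATNNAT in 4 (16.67% beside 7.68%) and TATAAA in 4 (16.67% beside 12.37%). The median GC content was 58.6% in Hox windows and 52.4% in all, and the median number of CpG 12.5 and 6. These are descriptions of the sequence, and the array does not measure binding.

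The cofactors of Hox proteins had ratios mostly below 0. All 9 were well above background at both ages, 2 were at least 2-fold lower, none higher (0 of 9) and 7 within 2-fold, and their median log2 ratio was -0.70 (-0.78 by the scanner ratio, -0.50 with median centring). Pbx2 went from 13123 to 4678 (log2 ratio -1.49) and Pbx3 from 23153 to 10783 (-1.10). Another probe of Pbx2 gave -0.53 and another of Pbx3 gave 0.41, and with the median over probes 1 cofactor was lower. The scanner ratio called 4 lower. Over all genes, 10.0% were called lower in the normexp and loess values and 15.2% by the scanner ratio. Of 8 genes of the related ParaHox and Evx families, Evx2 (-0.24) and Gsx1 (0.08) were measured, and Cdx1, Cdx2, Cdx4, Evx1, Gsx2 and Pdx1 were not well above background at either age.

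Of 28 Polycomb genes, whose products hold Hox clusters silent, 5 passed 2-fold downwards and 3 upwards, beside 10.0% and 17.2% of all genes. In between lay 20, and the median log2 ratio was -0.30 (-0.51 by the scanner ratio). The enzyme Ezh2, which places the repressive mark on histone H3, went from 16594 to 3329 (log2 ratio -2.32). Cbx2 (-2.10), which reads the mark, Rbbp4 (-1.39) and Cbx8 (-1.15) were also lower, although another Cbx2 probe gave -0.28 and another Cbx8 probe 1.35. Ring1 (1.28), Cbx7 (1.26) and Pcgf5 (1.17) were higher. Other probes gave 0.48 for Ring1, 0.25 for Pcgf5 and -0.48 to -0.42 for Rbbp4, and with the median over probes 3 Polycomb genes were lower and 1 higher. Of 14 Trithorax group genes and H3K27 demethylases, which oppose Polycomb, Rbbp5 (-1.10) and Men1 (-1.09) were lower, beside 10.0% of all genes. Within 2-fold lay 12, and the median was -0.43.

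**Figure D4:**
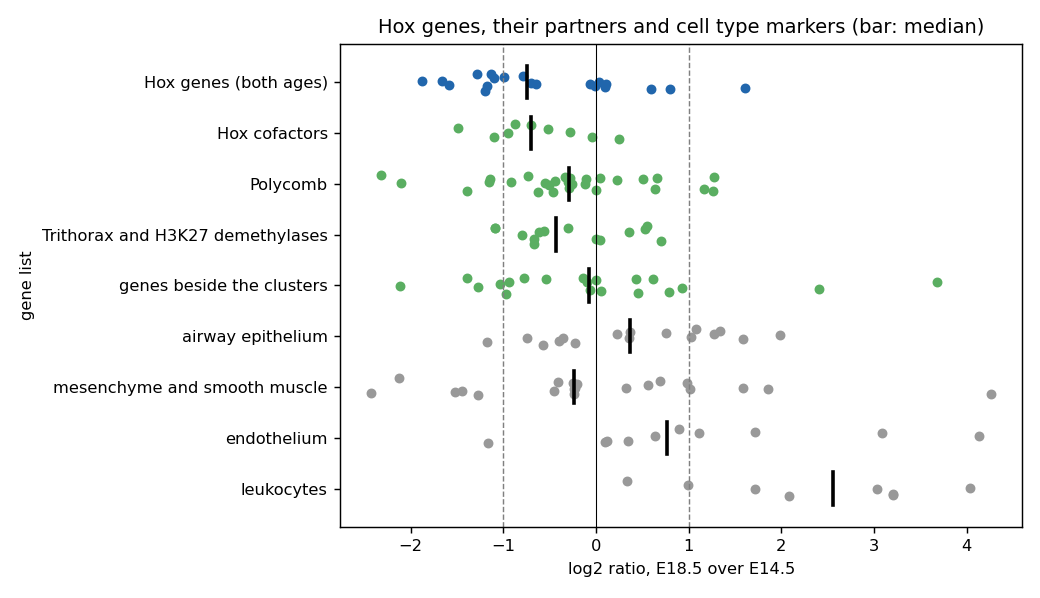
Log2 ratio of E18.5 over E14.5 (horizontal axis) of each gene of the lists named on the vertical axis, with a black bar at each list's median and dashed lines at 2-fold; Hox genes are the 20 measured at both ages. The medians of these 20 Hox genes (-0.75) and of the cofactors (-0.70) lie below that of mesenchyme and smooth muscle (-0.24). Over the 27 Hox genes with a ratio or bound the median is -0.20, above that of mesenchyme and smooth muscle. Leukocyte markers have the highest median (2.56).

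Hox genes are also expressed outside the epithelium, so the markers of the cells around the airways were read in the same samples. All 16 airway epithelium markers were above background at both ages, and their summed intensity went from 437219 to 711493; 6 were higher (among them Elf5 at 1.99 and Krt18 at 1.59), 1 lower (Cldn4, -1.17) and 9 within 2-fold. All 20 markers of mesenchyme and smooth muscle, a tissue that was not meant to be cut out, were also above background at both ages, and their summed intensity went from 635460 to 564169. Of these, 5 were lower, among them the smooth muscle genes Myh11 (-2.43), Acta2 (-1.52) and Cnn1 (-1.45) and the mesenchymal factor Foxf1 (-2.12), 4 were higher, among them Dpt (4.27), Eln (1.86) and Fgf10 (1.59), and 11 lay within 2-fold. These counts stand beside 10.0% of all genes called lower and 17.2% called higher. The part of these markers in the Hox result was not tested. Fewer cells of a type and less RNA per cell cannot be told apart in such samples.

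Markers of other cells moved as well, and their counts stand beside the same shares of all genes (10.0% lower and 17.2% higher). The summed intensity of 10 endothelial markers went from 17860 to 101750 (4 higher, 1 lower, median log2 ratio 0.77), of 8 leukocyte markers from 3710 to 16318 (6 higher, 0 lower), of 5 mesothelial markers, of which Krt19 is also an epithelial marker, from 51468 to 141399 (3 higher, 0 lower) and of 7 red cell genes from 88661 to 301196 (2 higher, 4 lower, median log2 ratio -1.12), with no marker of these lists dim at both ages. Such sums follow their brightest probes: Kdr alone went from 4090 to 71669 among the endothelial markers, and the red cell sum was higher while the median log2 ratio was below 0. The 3 measured nerve markers went from 3174 to 3073. Their part in the Hox result was not tested either.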

How the data were processed

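Both samples, 1 per age, were read from 1 array, since the scanner tables given for them were identical in 116 of 116 columns. The mean and median background intensity per spot and channel are as deposited by the authors, the output of Agilent Feature Extraction (version 9.5.3.1 in the submitters' processing notes). The log10 ratio of red over green, its error and the flags (outlier, saturated, well above background) are also deposited values of that software, per the file headers. The authors' value table holds linear intensity: the processed signal times 0.339, with a floor of 15 (column medians 129 and 130.2, not centred).

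Signals were background-corrected with normexp (offset 50) and then loess-normalized with a span of 0.3 and 4 iterations, using limma 3.58.1 (R 4.3.3), with control and outlier spots (160 of 43379 probe spots) at weight 0. The offset pulls ratios of dim genes towards 0. No Hox spot was saturated (0 of 59). Repeated spots were averaged. Of several probes, the brightest one well above background was used. A probe above background in 1 channel gives a bound, in which the dim side is set to the lowest signal that counts as well above background in its channel, or to the spot's own signal where that is higher. Some spots without the mark were brighter than that lowest signal, such as Hoxd10 at 90.0 in the E18.5 channel, so these bounds are approximate. Calls are by size, 2-fold. Number of arrays, 1, limits the precision. The normalization was tested on simulated data. Python 3.11.15, numpy 2.4.6, pandas 2.3.3 and matplotlib 3.10.9 were used.

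All Hox genes enter the counts; a few items are not reported here. Of partner and marker lists, the text names up to 4 genes in each direction past 2-fold with the same sign in the scanner ratio. The Hox genes and the lists were chosen with earlier results of these data known. Names follow RefSeq (GRCm38.p6).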

Additional observations from a re-analysis of the deposited data

How the results depend on the processing

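The genes called lower numbered 8 in the reported values, 13 by the scanner software's ratio, and 6 to 12 under the other alternatives (offset 16, median centring without loess, median over probes, probes above background at both ages, no filter on dim probes, the authors' value table and 1.5-fold). Hoxd4 was the 1 gene called higher under all of these except 1.5-fold, which gave 3. The median log2 ratio of the Hox genes, -0.20 with bounds, was -0.75 over those measured at both ages. The HoxA median, -0.65, was -1.29 by the scanner ratio and -0.022 with no filter on dim probes, the HoxB median, -1.15, was -1.58 by the scanner ratio, and the HoxD median, 0.05, was 0.86 over genes measured at both ages. No value turned its sign past 2-fold. Of the 27 genes, the scanner ratio and the value table each moved 10 by more than 0.33, the median over probes 3, the offset 1 and median centring 0. Over all genes the median log2 ratio was 0.06, against -0.04 by the scanner ratio and 0.13 with median centring. No paired analysis was possible because each age has 1 sample. For the same reason no sample could be left out. Signal over background limits what can be said of the 11 Hox genes dim at both ages and of the 7 with a bound.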
